A study of Rattus norvegicus with 15 samples.

Results

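Mmp9 and 8 osteoclast genes were followed in RNA from single molar tooth germs of the rat. The 9 genes were Mmp9 (ENSMUSG00000017737), Ctsk (ENSMUSG00000028111), Acp5 (ENSMUSG00000001348), Csf1r (ENSMUSG00000024621), Csf1 (ENSMUSG00000014599), Tnfsf11 (ENSMUSG00000022015), Tnfrsf11a (ENSMUSG00000026321), Tnfrsf11b (ENSMUSG00000063727) and Atp6v0d2 (ENSMUSG00000028238). Mmp9 was chosen by its large and uneven difference between E15 and E17 teeth, so that its values at these stages are a description and support nothing. The other genes were chosen by function, for their known roles in osteoclasts. Of the 9 genes, 8 had a row among the 14185 genes of the table used, and Tnfsf11 (RANKL, the ligand that drives osteoclast formation) was not analysed here.

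The teeth were molars of DA/HanRj rat embryos, a laboratory strain, with no treatment. They came from E15 (labelled E15.5, bud stage), E17 (labelled E17.5, cap stage) and E18 (embryonic day 18), with 5 libraries per stage and 1 tooth per library. The E18 labels state the wild type genotype and the lower first molar, and those of E15 and E17 state molar 1. The dissection kept as little surrounding tissue as possible, as stated for the E18 teeth and in the methods of the study for E15 and E17. A library can therefore hold some tissue from around the germ. E17 replicate 1 (left tooth) and E17 replicate 2 (right tooth) share an embryo, which leaves 14 embryos for 15 libraries. Each stage has a title code of its own and E18 has a protocol text of its own, so that stage and any difference in preparation cannot be told apart. Libraries held between 10993502 and 27571541 counts, and a count of 0 allows up to 3 counts, which is between 0.109 and 0.273 CPM (counts scaled to the library total). The mean correlation of a library with the others of its stage was 0.873 for E18 replicate 3, against at least 0.944 for every other library. The dental epithelium gene Trp63 (1074 to 3595 normalized counts) was detected in all 15 libraries.

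Osteoclasts are large cells that resorb bone and that form by fusion of precursors of the macrophage lineage. CSF1 acts through its receptor CSF1R to keep these precursors alive, and RANKL acts through RANK (Tnfrsf11a) to turn them into osteoclasts, whereas osteoprotegerin (Tnfrsf11b) binds RANKL and blocks it. The mature cell acidifies the bone surface with a proton pump, which uses the subunit Atp6v0d2. It digests matrix with cathepsin K (Ctsk) and gelatinase B (Mmp9), and it also makes tartrate-resistant acid phosphatase (TRAP, Acp5). Around a growing tooth germ such cells enlarge the bony crypt and later open the path of eruption. Mmp9 is also made by neutrophils, macrophages and other cells.

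Promoter sequence from RefSeq (build GRCr8) was matched by symbol for 4 of the 9 genes. The 250 bases before the transcript start are shown for Ctsk and for 1 of the 2 listed starts of Acp5. These are the matched genes for enzymes of the mature osteoclast named above, and both rose at E17. Motifs bound by factors of osteoclast formation were searched on both strands, namely TGANTCA (AP-1), GGAAA (NFAT core), GAGGAA (PU.1 core) and CATGTG (an E-box of the MITF type), of which none overlapped another here. Ctsk lies on the plus strand at chr2:185747298-185747547 and Acp5 on the minus strand at chr8:28943930-28944179. Capitals mark the matches.
Ctsk: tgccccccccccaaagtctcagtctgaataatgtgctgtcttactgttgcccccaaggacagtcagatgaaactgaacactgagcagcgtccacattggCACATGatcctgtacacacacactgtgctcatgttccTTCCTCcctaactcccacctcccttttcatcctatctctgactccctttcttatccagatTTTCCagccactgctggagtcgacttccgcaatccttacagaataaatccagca
Acp5: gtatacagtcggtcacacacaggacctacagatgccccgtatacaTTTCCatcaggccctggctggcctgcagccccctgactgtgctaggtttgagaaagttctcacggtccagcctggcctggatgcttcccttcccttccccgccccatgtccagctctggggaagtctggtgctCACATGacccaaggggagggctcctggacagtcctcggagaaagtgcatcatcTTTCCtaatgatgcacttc
The Ctsk window held 1 match each to the PU.1 core (positions -114 to -109 from the start), the E-box (-151 to -146) and the NFAT core (-54 to -50). The Acp5 window held the E-box at -72 to -67 and the NFAT core at -205 to -201 and again at -19 to -15. All of these lie on the strand opposite to the gene, AP-1 had no match, and the window of the other Acp5 start held none of the letters searched. The letters are common: of 33469 rat promoters of this length, 56.9% held GGAAA, 23.3% GAGGAA, 12.1% CATGTG and 6.34% TGANTCA. A match is a description of letters, not a site.

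Mmp9 was low at E15 and spread widely at E17. In order of replicates 1 to 5, its level was 26.6, 30.7, 7.0, 33.1 and 40.3 normalized counts at E15 (counts divided by a size factor per library). At E17 it was 80.9, 294, 270, 635 and 328. At E18 it was 872, 465, 704, 1063 and 776. Every E17 tooth lay above every E15 tooth, while E17 and E18 overlapped, since E17 replicate 4 exceeded E18 replicate 2. The means were 27.5 ± 12.5 (SD, n = 5), 322 ± 200 and 776 ± 220 normalized counts, and the fitted E17 to E15 log2 fold change behind the choice was 3.55 ± 0.48 (SE). It lay between 3.14 and 3.79 when any 1 library was left out. The coefficient of variation of Mmp9 was 45.4% at E15, 62.1% at E17 and 28.4% at E18, and 92.8%, 98.4% and 72.6% of genes averaging 10 or more normalized counts varied less at those stages.

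**Figure D1:**
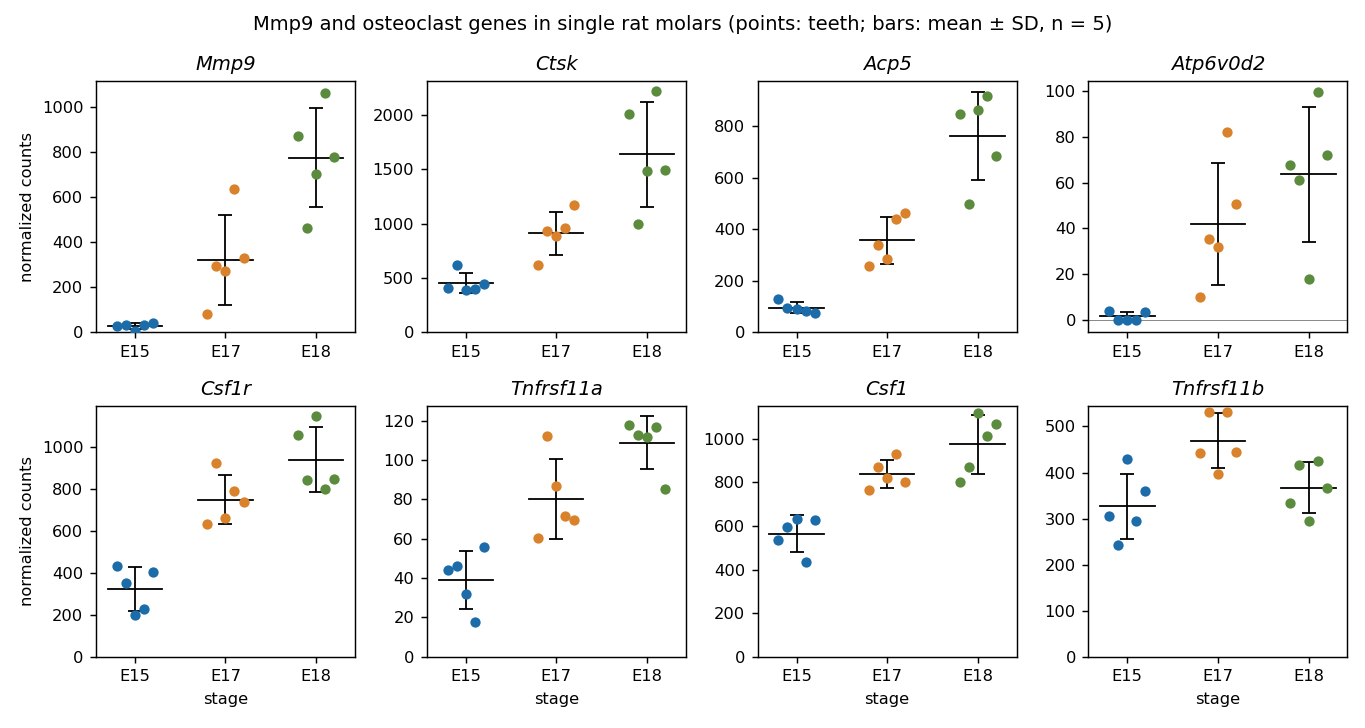
Normalized counts (vertical axis, from 0) of the 8 genes with a row, by stage (horizontal axis); each point is 1 tooth, in order of replicate from left to right, and bars are mean ± SD of 5 teeth. Mmp9 runs from 80.9 to 635 within E17, and Acp5 is the gene whose E18 teeth all lie above its E17 teeth.

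The enzyme genes Ctsk and Acp5 were already detected at E15. Ctsk was at 405, 621, 391, 402 and 446 normalized counts at E15. The E17 teeth held 614, 931, 882, 956 and 1168. The E18 teeth held 2008, 994, 1488, 2220 and 1489. E17 replicate 1 lay just under E15 replicate 2, so that the stages touched, and the other 4 E17 teeth were above all E15 teeth. Acp5 separated all 3 stages. It was at 131, 95.5, 91.6, 82.8 and 72.7 normalized counts at E15. Values of 259, 340, 286, 441 and 464 followed at E17. Those of E18 were 846, 498, 864, 917 and 684. The lowest E18 tooth was above the highest E17 tooth, and the lowest E17 tooth above the highest E15 tooth.

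Atp6v0d2, the pump subunit, was near the limit of detection at E15, with 7, 0, 0, 0 and 3 counts in replicates 1 to 5. At E17 it had 9, 31, 38, 77 and 46 counts. In normalized counts the E17 teeth were at 9.8, 35.1, 31.6, 82.2 and 50.8, and the E18 teeth at 67.7, 61.3, 17.9, 99.5 and 72.0. All E17 teeth were above all E15 teeth, and E17 and E18 overlapped widely, with E18 replicate 3 low. Pooled over libraries, 201 counts at E17 against 10 at E15 gave a ratio of 22.7 after scaling by size factors (95% exact binomial interval 12.1 to 48.0, which covers counting error alone).

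The receptors of the precursors were measured in all 15 teeth. Csf1r was at 432, 353, 197, 228 and 406 normalized counts at E15. At E17 it was at 635, 923, 661, 791 and 740, and at E18 at 1058, 842, 1150, 801 and 848. Every E17 tooth was above every E15 tooth, and E17 and E18 overlapped. Tnfrsf11a was a gene of low counts, at 43.9, 46.1, 31.7, 17.6 and 55.9 normalized counts at E15. The E17 teeth held 60.1, 112, 86.5, 71.5 and 69.6, and the E18 teeth 118, 113, 112, 117 and 85.0. Here too E15 stood below E17, and E17 overlapped E18, since E17 replicates 2 and 3 exceeded E18 replicate 5.

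The ligand Csf1 and the decoy receptor Tnfrsf11b, both known as products of mesenchymal cells, spanned a narrower range. Csf1 was at 537, 594, 634, 434 and 630 normalized counts at E15. At E17 it was at 765, 873, 821, 933 and 802, and at E18 at 802, 869, 1118, 1014 and 1069. Csf1 at E17 varied by 7.79% (coefficient of variation), the least of the 8 genes at any stage. Tnfrsf11b was at 305, 244, 430, 294 and 360 normalized counts at E15. At E17 it was at 443, 531, 398, 530 and 444, and at E18 at 335, 416, 295, 425 and 366. Tnfrsf11b was the gene whose mean was highest at E17, and its E18 teeth lay within the range of the E15 teeth.

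Between E15 and E17, the step from bud to cap, all 6 companion genes of Mmp9 that entered the test rose (quasi-likelihood F test of edgeR, adjusted p under 0.05) and 0 fell, also at an unadjusted p under 0.05. Over all 12627 genes tested, 11.3% rose and 7.02% fell. The log2 fold change was 1.91 ± 0.20 (SE) for Acp5, with an adjusted p of 2.95e-05. Csf1r rose by 1.21 ± 0.20 (adjusted p = 0.000848), Tnfrsf11a by 1.04 ± 0.29 (0.0230) and Ctsk by 1.02 ± 0.16 (0.000793). Csf1 rose by 0.58 ± 0.10 (adjusted p = 0.00151) and Tnfrsf11b by 0.53 ± 0.14 (0.0179), the smallest changes. The median over the 6 genes was 1.03, and that over all genes tested -0.0087. Atp6v0d2 did not pass the filter on low counts, since E17 replicate 1 had 9 counts. In the fit without that filter its log2 fold change was 4.52 ± 0.75 (adjusted p = 0.00101), a value that depends on how counts of 0 are treated. Of the 6 companion genes tested, 4 had every E17 tooth above every E15 tooth, which held for 9.23% of genes tested. Tnfrsf11a missed the threshold without E17 replicate 2 (adjusted p = 0.0704) or replicate 3 (0.0545), and Tnfrsf11b without E17 replicate 2 (0.0510). In RNA from whole teeth, fewer cells of a type and less RNA per cell cannot be told apart.

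Between E17 and E18 the levels moved less. Of the 7 companion genes, Acp5 rose, 0 fell and 6 did not pass the test by edgeR. Over all 12718 genes tested, 1.91% rose and 0.629% fell. At an unadjusted p under 0.05, 4 companions were higher and 1, Tnfrsf11b, was lower, against 10.6% and 5.28% of all genes. The DESeq2 Wald test called 2 companions higher, Acp5 and Ctsk, against 3.48% of its genes. Acp5 changed by 1.09 ± 0.21 on the log2 scale (edgeR, adjusted p = 0.0203), and it was the companion gene in which all E18 teeth exceeded all E17 teeth, which held for 4.18% of genes tested. This call was lost without E17 replicate 1, 2 or 3 or without E18 replicate 4, with an adjusted p between 0.0510 and 0.0642. For Ctsk the log2 fold change was 0.85 ± 0.22, with an adjusted p of 0.0720 by edgeR and 0.00808 by DESeq2. The values were 0.61 ± 0.50 for Atp6v0d2 (adjusted p = 0.581), 0.45 ± 0.18 for Tnfrsf11a (0.262), 0.33 ± 0.13 for Csf1r (0.262) and 0.22 ± 0.10 for Csf1 (0.350). Tnfrsf11b had the only negative value, -0.35 ± 0.13 (edgeR, adjusted p = 0.202). The median over the 7 companion genes was 0.45, and that over all genes tested -0.015. For Mmp9 the log2 fold change was 1.27 ± 0.41, given as a description because the E17 libraries entered its choice, whereas the E18 libraries did not.

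**Figure D2:**
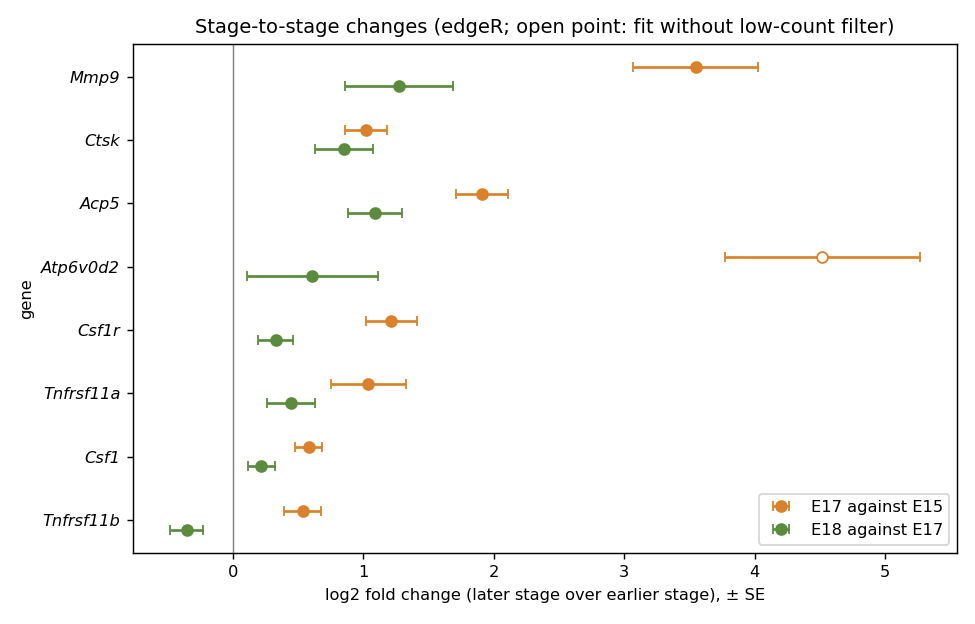
Log2 fold change ± SE (horizontal axis) of each gene (vertical axis) from E15 to E17 and from E17 to E18, from edgeR fits of 5 against 5 teeth; the open point is Atp6v0d2 in the fit without a filter on low counts, and the Mmp9 value from E15 to E17 (3.55) is the one behind its choice. Every gene has its larger value in the step to E17, which spans more time by the labels than the step to E18. Tnfrsf11b alone lies below 0 in the step to E18 (-0.35).

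Over the whole span from E15 to E18, 5 of 6 companion genes rose and 0 fell (edgeR, at an unadjusted p under 0.05 as well). Mmp9 and Atp6v0d2 are left out of this count. Over all 12661 genes tested, 14.2% rose and 6.73% fell. This comparison shares its libraries with both steps above, and the E15 libraries entered the choice of Mmp9, whose log2 fold change of 4.82 ± 0.36 is given as a description. Acp5 rose by 3.01 ± 0.21 on the log2 scale (edgeR, adjusted p = 6.52e-06), Ctsk by 1.87 ± 0.22 (0.000129), Csf1r by 1.55 ± 0.22 (0.000509) and Tnfrsf11a by 1.48 ± 0.27 (0.00236). Csf1 rose by 0.79 ± 0.13 (edgeR, adjusted p = 0.00131). Atp6v0d2 was near 0 at E15 and passed the filter on low counts only through its E18 teeth, so that a difference was built into its entry and no test is given; its pooled count ratio was 35.6 (95% exact binomial interval 19.1 to 74.9). Tnfrsf11b was at 0.18 ± 0.16 (edgeR, adjusted p = 0.456). The 5 companion genes that rose had every E18 tooth above every E15 tooth, which held for 12.7% of genes tested. The median over the 6 companion genes was 1.51, and that over all genes tested -0.017.

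Ratios between genes of the same tooth cancel the library size. Mmp9 per 100 normalized counts of Ctsk was 6.12 ± 2.88 (SD, n = 5) at E15, 34.0 ± 19.6 at E17 and 47.5 ± 3.10 at E18. At E17 this ratio ran from 13.2 to 66.4 between teeth, and at E18 only from 43.4 to 52.1, although both genes varied more than 2-fold between E18 teeth. Against Csf1r the E18 teeth were not so close, since Mmp9 per 100 Csf1r ran from 55.2 to 133 (84.6 ± 30.7), after 42.0 ± 24.7 at E17 and 8.58 ± 4.13 at E15. Tnfrsf11a per 100 Tnfrsf11b was 12.4 ± 5.54 at E15, 17.1 ± 4.04 at E17 and 30.2 ± 6.13 at E18. Every E18 tooth (23.2 to 37.9) was above every E17 tooth (13.5 to 21.8) in that ratio of RANK to osteoprotegerin. Tnfrsf11a per 100 Csf1r, both receptors of the precursors, was 12.2, 10.6 and 11.8 in the mean at the 3 stages. Acp5 per 100 Csf1r was 31.6, 47.9 and 81.9. These ratios use gene counts that are not corrected for length, so that their change between teeth can be read and their size cannot, and they were not tested.

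The 2 teeth of the shared E17 embryo differed in Mmp9, at 80.9 normalized counts in the left tooth (replicate 1) and 294 in the right (replicate 2), a 3.64-fold difference. On the log2 scale the right tooth was 1.85 higher, a difference above that of 99.5% of 12781 genes, with a median absolute difference of 0.136 over these genes. With 1 such pair there is no replicate check. The right tooth was also higher for Atp6v0d2 (3.57-fold), Tnfrsf11a (1.86-fold), Ctsk (1.52-fold), Csf1r (1.45-fold), Acp5 (1.31-fold), Tnfrsf11b (1.20-fold) and Csf1 (1.14-fold). The left tooth was the lowest E17 library for 7 of the 8 genes, all but Tnfrsf11b, and among E17 teeth it was also lowest for Col1a1, the main collagen of bone and tooth mesenchyme, and for Spp1 and Mmp13. Genes of the dental epithelium differed less between these teeth, with the right tooth at 0.865 of the left for Trp63, 1.05 for Shh and 1.01 for Sp6. The left tooth was the highest E17 library for Trp63 and the lowest for Sp6. Whether the amount of tissue kept around each tooth had a part in these differences was not tested.

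Genes that varied with Mmp9 between teeth of the same stage were sought by Pearson's r of log2(normalized count + 1) after subtracting each stage's mean, over 15 libraries and 12780 genes. Of these, 355 had a symbol. These values describe libraries that share a stage and, for 1 pair, an embryo. Spp1 (osteopontin, a secreted phosphoprotein of osteoblasts, osteoclasts and macrophages) had the highest r of all genes, 0.90 (Spearman's rho 0.79). It stayed at rank 1, at 0.81, without E17 replicate 1 and E15 replicate 3, the libraries in which Mmp9 lay farthest from its stage. The next named genes were the Wnt receptor Fzd9 (r = 0.85, rank 4) and Spock1, a secreted proteoglycan (0.80, rank 11). Nrp2, a co-receptor of semaphorins and VEGF, was at 0.76 and Tnc, the matrix protein tenascin C, at 0.72. Without these 2 libraries Fzd9 was at 0.74, Nrp2 at 0.54, Tnc at 0.39 and Spock1 at 0.37, so that Spock1 and Tnc rested largely on them. In 1 of them, E15 replicate 3, Spp1 had 0 counts and Fzd9 had 1, values near the limit of detection. Ranks 2 and 3 were taken by genes without a symbol here, ENSMUSG00000032122 (0.89) and ENSMUSG00000002111 (0.87).

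The osteoclast genes differed in their likeness to Mmp9. Atp6v0d2 was at r = 0.63 (rank 197) and Ctsk at 0.62 (rank 207), Csf1r at 0.51 and Acp5 at 0.45. The E15 teeth held 0 to 7 counts of Atp6v0d2, so that its r rests in part on values near the limit of detection. Tnfrsf11a was at 0.22, Csf1 at 0.08 and Tnfrsf11b at -0.17. Most of these values moved without E17 replicate 1 and E15 replicate 3. Ctsk was then at 0.54, Acp5 at 0.42, Atp6v0d2 at 0.41, Csf1r at 0.10, Tnfrsf11a at -0.05, Csf1 at 0.26 and Tnfrsf11b at 0.20. The likeness of Csf1r thus rested on these teeth, and the sign for Tnfrsf11a and Tnfrsf11b turned. Of all pairs of the 8 genes, the highest r within stages was 0.71, between the precursor receptors Csf1r and Tnfrsf11a, followed by 0.66 for Ctsk and Acp5. Over all libraries, where stage sets most of the value, ranks 1 and 2 went to ENSMUSG00000032122 (0.983) and ENSMUSG00000002111 (0.976), without a symbol here. The named genes most like Mmp9 were Fam20c (a kinase of secreted proteins, 0.95, rank 9) and Sdc4 (a heparan sulfate proteoglycan, 0.94, rank 14). Next came Acp5 (0.94, rank 15), the epithelial transcription factor Sp6 (0.94, rank 23) and Col1a1 (0.93, rank 25).

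**Figure D3:**
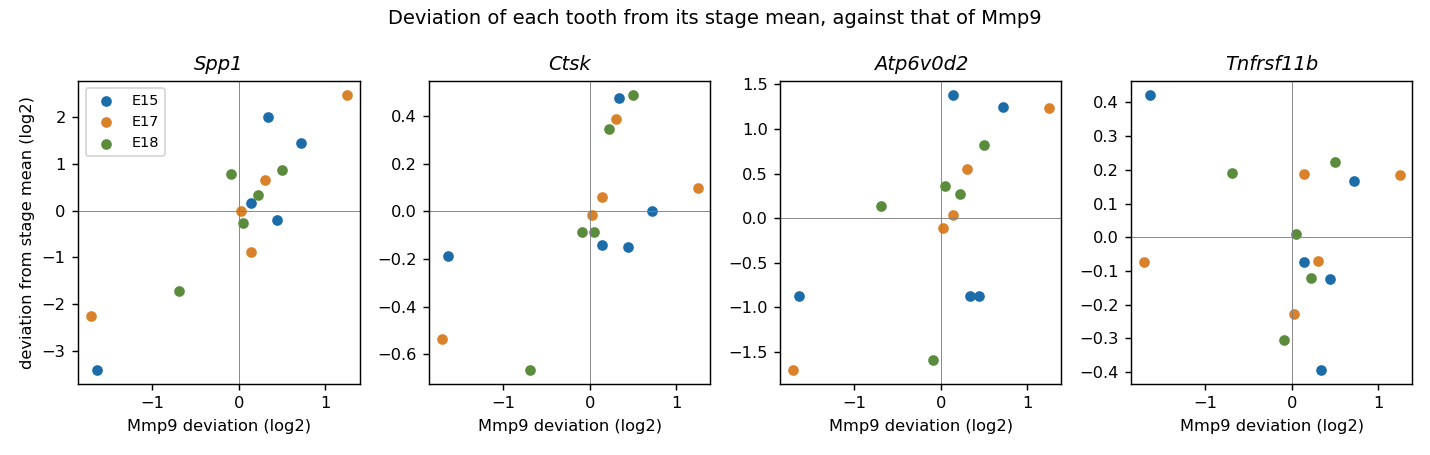
Deviation of each of the 15 teeth from its stage mean on the log2(normalized count + 1) scale, for Mmp9 (horizontal axes) and for Spp1, Ctsk, Atp6v0d2 and Tnfrsf11b (vertical axes), coloured by stage. Spp1 follows Mmp9 (r = 0.90), Ctsk and Atp6v0d2 do so less (0.62 and 0.63), and Tnfrsf11b does not (-0.17, or 0.20 without the 2 teeth named next); E17 replicate 1 and E15 replicate 3 are the points at the far left.

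Spp1 and other genes of fixed lists were read beside these results. Of 133 listed genes, 21 could be joined to a row. For 7 of 14 lists, those of macrophages, neutrophils, mast cells, erythroid cells, endothelium, cartilage and muscle, no gene had an identifier here. Genes of these lists can still be among the rows without a symbol, also among those most like Mmp9. The part of these cell types in the levels above was not tested. Of 2 osteoclast machinery genes with a row, Tcirg1, a proton pump subunit, rose from E15 to E17 by 0.38 ± 0.09 on the log2 scale (edgeR, adjusted p = 0.00733), and Ostm1, a partner of the osteoclast chloride channel, was at 0.49 ± 0.18 (0.0741). Of 5 osteoclast signalling genes, 0 passed in that step by edgeR (1, Nfkb2, at an unadjusted p under 0.05). Over all genes tested, 11.3% rose and 7.02% fell in that step, so that 0 of 5 says little about these genes. In the same step Traf6 (the adaptor of RANK) was at -0.09 ± 0.08. From E17 to E18, where 1.91% of all genes rose, Fos rose by 3.46 ± 0.55 (edgeR, adjusted p = 0.00843). Fos is an immediate-early AP-1 subunit that osteoclast formation needs. Fos at E18 ran from 105 to 1208 normalized counts between teeth. Of the 5 genes with a row that the study links to eruption, Csf1 and Tcirg1 rose at E17 and Fos at E18. From E15 to E18, Tcirg1, Fos, Nfkb2 and Relb were past the threshold as higher and Ostm1, Traf6 and Nfkb1 were not. Over all genes tested, 14.2% rose in that comparison.

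Of 5 osteoblast genes with a row, Col1a1 rose from E15 to E17 by 1.19 ± 0.24 on the log2 scale (edgeR, adjusted p = 0.00367). Over all genes tested, 11.3% rose and 7.02% fell in that step. Alpl, Dmp1 and Runx2 did not pass. Runx2 had an unadjusted p under 0.05 by edgeR, with a lower mean at E17 (5559 normalized counts) than at E15 (6920). Spp1 had 0 to 38 counts in the E15 teeth, of which 3 reached the limit of the low-count filter, so that it depended on the E17 teeth to enter the test. None of the 5 passed from E17 to E18 by edgeR (1, Dmp1, at an unadjusted p under 0.05), where 1.91% of all genes rose and 0.629% fell. Runx2, the osteoblast transcription factor, was lower at E18 than at E15 by -0.55 ± 0.13 (edgeR, adjusted p = 0.0109). Over all genes tested, 6.73% fell in that comparison. Spp1 was at 24.0, 63.4, 117, 659 and 186 normalized counts in the E17 teeth, replicates 1 to 5. The highest and the lowest tooth were those of Mmp9. The collagenase Mmp13 was at 22.9, 63.4, 39.9, 409 and 69.6 in the same teeth, again with replicate 4 highest and replicate 1 lowest. Mmp13 had 1 to 13 counts in the E15 teeth and entered the test only through the E17 teeth, so that its difference is given as a pooled count ratio of 25.8 (95% exact binomial interval 17.3 to 40.2) with no test. Mmp14, which activates other metalloproteinases, rose by 0.30 ± 0.08 on the log2 scale (edgeR, adjusted p = 0.0160). The inhibitors Timp1 (0.47 ± 0.15, adjusted p = 0.0499) and Timp2 (0.40 ± 0.07, 0.00127) rose in the same step. In the step to E18, 0 of these metalloproteinases and inhibitors passed by edgeR, also at an unadjusted p under 0.05. At that unadjusted limit 10.6% of all genes rose and 5.28% fell, so that the 0 says little about these few genes. The dental epithelium genes Trp63 and Sp6 rose in both steps, and Shh rose in the step to E18. Shh entered the test of E15 and E17 through its E17 teeth, so that its difference there is a description.

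**Figure D4:**
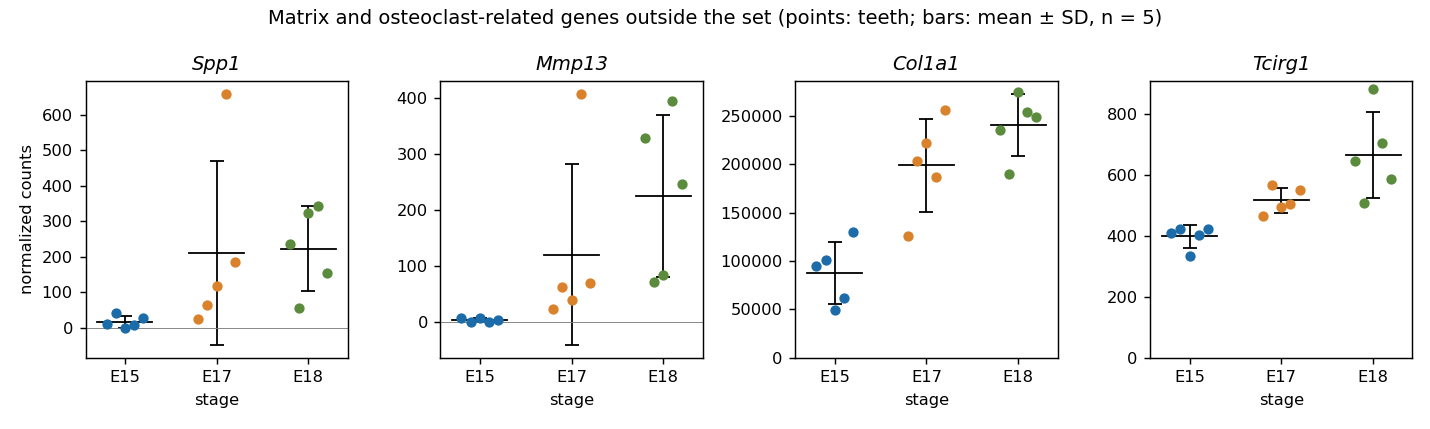
Normalized counts (vertical axis) of Spp1, Mmp13, Col1a1 and Tcirg1 by stage (horizontal axis); points are teeth in order of replicate and bars are mean ± SD of 5 teeth. E17 replicate 4 stands highest for Spp1 (659) and Mmp13 (409), and E17 replicate 1 lowest of its stage in all 4 panels.

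At E18 the order of teeth was partly shared as well. Replicate 2 was the lowest E18 tooth for Mmp9, Ctsk and Acp5, and also for Spp1, Mmp13, Col1a1, Tcirg1 and Fos, whereas Trp63 in that tooth (3595) was the highest of its stage and Sp6 (1231) was within the range of the others. Replicate 4 was the highest E18 tooth for 5 of the 8 genes, namely Mmp9, Ctsk, Acp5, Tnfrsf11b and Atp6v0d2. Replicate 3, which correlated least with its stage, was the lowest for Atp6v0d2 and Tnfrsf11b and the highest for Csf1r and Csf1. At E15, replicate 3 was the lowest for Mmp9, Ctsk and Csf1r and the highest for Csf1 and Tnfrsf11b. Leaving out E18 replicates 1 and 3 together gave 2 genes past the threshold from E17 to E18, Acp5 and Ctsk (0.78 ± 0.22 on the log2 scale, edgeR, adjusted p = 0.0427).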

How the data were processed

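RNA was sequenced from 15 single molars. Per the labels and the methods of the study, reads were quality filtered (FastQC, Trimmomatic), and the deposited table used here holds expected counts from Salmon (version 0.99.0 in the submitters' processing notes, listed with E18 and with build Rnor_6.0), written by the authors as whole numbers under mouse Ensembl identifiers. How rat transcripts were joined to these identifiers and whether strand was used are not given in the sources used here, so overlapping genes and near-identical copies are uncertain. A deposited HTSeq table of E15 and E17 was not used, because its rat identifiers could not be joined to symbols. Symbols came from the study's 399 symbol and identifier pairs; 356 were found in the table. Counts were scaled with DESeq2 size factors for levels (normalized counts). Stages were compared with edgeR 4.0.16 (TMM, filterByExpr, quasi-likelihood F test, Benjamini-Hochberg over all genes tested, threshold 0.05) in R 4.3.3, with DESeq2 1.42.0 as an alternative. SEs were derived from the F statistic. The fit was tested on simulated data. Groups followed the labels, and replicates are separate teeth, so p-values measure the spread between teeth. Named besides the 9 genes are, per list, up to 3 genes with the largest changes past the threshold in each step, and the 5 genes with a symbol most like Mmp9 within stages and over all libraries; Ostm1, Traf6, Alpl, Dmp1, Runx2, Nfkb1, Nfkb2, Relb and the genes without a symbol were named after their values were seen. A gene of the dental epithelium list is not reported here. In the Results, Mmp9 was left out of the counts of genes called, and Atp6v0d2 of those against E15. The counts across processing settings at the end include these genes where stated. Genes and lists were chosen with earlier results of these data known.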

Additional observations from a re-analysis of the deposited data

Results flagged for a closer look

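In each gene and stage, the gap between an extreme tooth and its neighbour was set against the range of the 5 teeth (Dixon's criterion). Of 24 groups of 5 teeth, 2 passed the limit of 0.71, where chance gives 1.2. Ctsk in E15 replicate 2 stood above the other E15 teeth at 621 normalized counts. Tnfrsf11a in E18 replicate 5 stood below the other E18 teeth at 85.0 normalized counts. No Mmp9 tooth at E17 passed this criterion, which looks for an isolated tooth and does not measure how wide the spread is.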

How the results depend on the processing

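The count of companion genes past the threshold from E15 to E17 was 6 and ran from 4 to 7 with any 1 library left out. It was 6 or 7 under the other settings (size factors, filters, DESeq2, all 15 libraries in one fit, the 2 teeth of the shared embryo joined, E15 replicate 3 and E17 replicate 1 left out). Each count of 7 was the same 6 genes and Atp6v0d2. That gene was near 0 at E15 and entered those fits through its later teeth or without a filter, so that its part is a description. The counts for E18 that follow include Mmp9, whose E15 and E17 values entered its choice, and Atp6v0d2. From E15 to E18 the count was 7, also with any 1 library left out, and 5 to 7 under the other settings. In it Mmp9 and Atp6v0d2 are descriptions, and Atp6v0d2 met the main filter only through its E18 teeth. The count of 5 came from the filter of at least 10 counts in every library, which both genes missed. Ctsk, Acp5, Csf1r, Csf1 and Tnfrsf11a passed under every setting, and 14.2% of all genes rose in the main fit. From E17 to E18 the count was 1, and 0 to 2 with any 1 library left out: 0 without E17 replicate 1, 2 or 3 or E18 replicate 4, and 2 without E18 replicate 2 or 3. It was 3 by DESeq2 (Mmp9, Ctsk, Acp5), 2 with all 15 libraries in one fit (Ctsk at an adjusted p of 0.0351, and Acp5), and 2 without E18 replicates 1 and 3, a setting chosen after seeing the data, as was that without E15 replicate 3 and E17 replicate 1. No fold change changed sign under any setting. Of the fold changes of single genes under the alternatives, 376 kept their side of the threshold, 6 passed it newly and 7 lost it. Mmp9 and Atp6v0d2 are among them, and their values against E15 are descriptions. No paired analysis was possible because replicate numbers follow accession order and the embryo numbers belong to a different title code at each stage. The alternative on the HTSeq table was not run, as its identifiers could not be joined. Depth limits Atp6v0d2 at E15 (10 counts in all), and the confounding of stage with title code limits every comparison between stages.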
